A study of Mus musculus with 12 samples.

Results

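The genes described here are 38 interferon-responsive and MHC class I genes of the mouse, out of 54532 genes listed for the gastrocnemius, the large calf muscle. They were selected by gene symbol as a list of known interferon-induced and antigen presentation genes. They fall into 7 roles: 4 signal transcription factors, 3 sensors of double-stranded RNA, 4 members of the IFIT family, 3 of the OAS family, 11 other antiviral effectors, 7 guanylate-binding or immunity-related GTPases, and 6 genes of MHC class I presentation. The series concerns selpercatinib, a drug that inhibits the kinase RET, in cancer cachexia, a wasting of muscle and fat in patients with some tumours. All animals were female ICR SCID mice, an immunodeficient strain that usually lacks mature T and B cells. Mice of the TL group carried tumours grown under the skin from HT1080 cells, a fibrosarcoma line of human origin, and were given selpercatinib by oral gavage at 30 mg/kg once a day for 19 days. Mice of the TV group carried the same tumour and were given vehicle. Mice of the NTV group had no tumour and were given vehicle. Each group has 4 libraries, stated to be biological replicates and numbered 1, 4, 5 and 7 in TL, 3, 4, 6 and 8 in TV, and 2, 3, 5 and 6 in NTV.

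Interferons are secreted proteins that bind receptors on the cell surface and activate JAK kinases and STAT transcription factors. Type I interferons act through a complex that contains STAT2 and IRF9 and binds the interferon-stimulated response element (ISRE), and the response to interferon gamma runs through the gamma-activated site (GAS). The induced genes block viral replication, sense foreign RNA, attack intracellular pathogens and load peptides on MHC class I, which displays them to CD8 T cells. Mature skeletal muscle fibres are known for low MHC class I levels in health, and for raised levels in inflammatory muscle disease.

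Reads assigned to genes ranged from 14939830 to 23580603 per library, with both extremes in TV, and the 38 genes together took 5322 to 9735 reads per library. Levels are given as FPKM, fragments scaled for gene length and library size, as the authors deposited them. Differences are differences of log2(FPKM + 0.5), as estimate ± SE from limma, and understate the change of weak genes. A gene was called at a Benjamini-Hochberg adjusted p under 0.05 over 12754 genes, those whose FPKM averaged 0.5 or more over all libraries. Of the 38 members, 32 passed that minimum, and Oas1a, Oas2, Mx1, Mx2, Rsad2 and Ifi44 did not. Muscle fibre markers summed to between 46328 and 89803 FPKM per library. TL replicate 1, TL replicate 5 and NTV replicate 5 stood apart by Ucp1, the uncoupling protein of brown and beige fat, at 58.3, 3.97 and 53.4 FPKM, against at most 1.06 FPKM in the other 9 libraries. Calls and medians that move without these 3 libraries are given both ways.

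The genes differed widely in level. B2m, the light chain shared by all MHC class I molecules, had the highest mean over the 12 libraries at 96.2 FPKM, followed by the class I heavy chain H2-D1 at 21.9, the interferon-induced gene Ifi27 at 18.8, and Tapbp, the peptide-loading chaperone tapasin, at 8.87. The other 28 tested genes averaged between 0.516 FPKM for Oasl2 and 7.31 FPKM for Iigp1. At the low end, the antiviral GTPases Mx1 and Mx2 averaged 0.0489 and 0.234 FPKM, the antiviral enzyme Rsad2 (viperin) 0.189, Oas1a 0.285, Ifi44 0.327 and Oas2 0.435. Mx1 had between 0 and 10 reads per library, and Mx2 is annotated as a polymorphic pseudogene. Isg15, the ubiquitin-like modifier, passed the minimum at 1.46 FPKM but is a short gene with only 6 to 34 reads per library.

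The interferon genes that were examined were not detected. All 11 interferon genes examined (Ifnb1, Ifna1, Ifna2, Ifna4, Ifna5, Ifnk, Ifne, Ifnz, Ifng, Ifnl2 and Ifnl3) had 0 reads in all 12 libraries, which allows up to 3 reads per library, or at most 0.385 FPKM for these genes. Their receptors were measured. The type I receptor chain Ifnar1 averaged 3.21 ± 0.158 FPKM in TL, 3.21 ± 0.23 in TV and 3.15 ± 0.283 in NTV (SD, n = 4 each). The interferon gamma receptor chain Ifngr2 averaged 18.2 ± 2.38 FPKM in TL, 18.4 ± 4.71 in TV and 21.7 ± 3.55 in NTV.

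The promoters show what many of these genes share. RefSeq promoter windows (GRCm38.p6, 250 bases before to 50 after the gene start) were found for 31 of the 38 genes. The RefSeq start was not always the deposited start of the gene. The deposited start minus the RefSeq start was -15359 bases in Irgm2, -3579 in Tapbp, and -414 and -1008 for the windows of Irf9. The ISRE core, searched as GAAA, any 2 bases and GAAA on both strands, was present in 19 of these 31 (61.3%), against 3.99% of 27025 genes with a window. The GAS letters TTCNNNGAA were present in 9 of 31 (29.0%), against 9.55% of all genes. The 2 patterns may overlap. By role, the ISRE core was found in 6 of 6 GTPases (Gbp2, Gbp3, Gbp7, Igtp, Irgm1 and Irgm2), in 3 of 3 RNA sensors (Ddx58, Eif2ak2 and Ifih1) and in 3 of 4 IFIT genes (Ifit1, Ifit3 and Ifit3b). It was found in 3 of 6 other antiviral effectors (Bst2, Isg15 and Rsad2), in 2 of 6 MHC class I genes (B2m and H2-T23), in 1 of 2 OAS genes (Oas1a) and in 1 of 4 signal factors (Stat2). No window was given for Oas2, Mx1, Mx2, Rtp4, Parp14, Ifi27 and Iigp1.

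Windows of 280 bases, from 250 before to 30 after the start, are shown for the 4 genes called in a comparison, and for Isg15 and B2m as an overlapping set of matches and a single match. Each reads 5′ to 3′ along the gene, and capitals mark matches to the ISRE core on either strand. Ifit3 is at chr19:34583279-34583558 and Ifit3b at chr19:34607707-34607986 on the plus strand, Ddx58 at chr4:40239796-40240075, Eif2ak2 at chr17:78882543-78882822 and Isg15 at chr4:156200789-156201068 on the minus strand, and B2m at chr2:122147437-122147716 on the plus strand.
Ifit3: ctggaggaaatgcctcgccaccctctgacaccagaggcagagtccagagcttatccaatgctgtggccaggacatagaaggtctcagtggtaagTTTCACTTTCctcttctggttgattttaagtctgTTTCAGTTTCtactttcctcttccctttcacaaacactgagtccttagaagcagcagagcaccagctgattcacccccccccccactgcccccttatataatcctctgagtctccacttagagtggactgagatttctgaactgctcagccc
Ifit3b: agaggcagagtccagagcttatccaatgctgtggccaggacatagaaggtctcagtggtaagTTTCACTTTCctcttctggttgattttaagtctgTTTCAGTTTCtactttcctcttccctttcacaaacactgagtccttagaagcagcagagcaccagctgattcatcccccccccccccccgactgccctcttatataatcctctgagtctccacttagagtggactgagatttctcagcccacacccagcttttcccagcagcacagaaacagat
Ddx58: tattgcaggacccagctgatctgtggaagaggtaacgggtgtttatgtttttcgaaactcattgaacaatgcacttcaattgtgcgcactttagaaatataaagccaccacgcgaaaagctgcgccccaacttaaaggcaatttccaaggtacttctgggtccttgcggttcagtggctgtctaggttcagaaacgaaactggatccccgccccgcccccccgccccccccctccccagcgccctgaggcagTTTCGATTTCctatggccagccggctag
Eif2ak2: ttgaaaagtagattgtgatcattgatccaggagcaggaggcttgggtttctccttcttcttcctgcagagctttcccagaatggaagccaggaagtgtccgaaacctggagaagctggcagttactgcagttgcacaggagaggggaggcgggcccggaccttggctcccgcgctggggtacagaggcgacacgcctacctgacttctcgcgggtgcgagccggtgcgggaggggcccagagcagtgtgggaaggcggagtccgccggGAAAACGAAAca
Isg15: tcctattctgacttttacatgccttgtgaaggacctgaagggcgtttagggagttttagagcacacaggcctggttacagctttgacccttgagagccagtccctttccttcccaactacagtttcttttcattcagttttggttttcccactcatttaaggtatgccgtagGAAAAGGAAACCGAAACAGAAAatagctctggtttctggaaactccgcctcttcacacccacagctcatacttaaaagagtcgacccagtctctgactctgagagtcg
B2m: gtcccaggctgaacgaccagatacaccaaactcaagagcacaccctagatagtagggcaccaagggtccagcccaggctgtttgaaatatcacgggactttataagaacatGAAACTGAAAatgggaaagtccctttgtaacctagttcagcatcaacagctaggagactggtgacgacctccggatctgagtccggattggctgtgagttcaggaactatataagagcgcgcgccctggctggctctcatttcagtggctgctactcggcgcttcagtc
The Ifit3 and Ifit3b windows were identical at 239 of 254 aligned bases (94.1%), and in each the 2 ISRE matches began 34 bases apart. In Ddx58 and Eif2ak2 the match lay within the 30 bases after the start, and in Ifit3, Ifit3b, Isg15 and B2m it lay before the start. A match is a run of letters and does not show that a factor was bound. Nor does the lack of a match show that an element is absent. Only these exact letters were searched, and only within the promoter window.

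**Figure D1:**
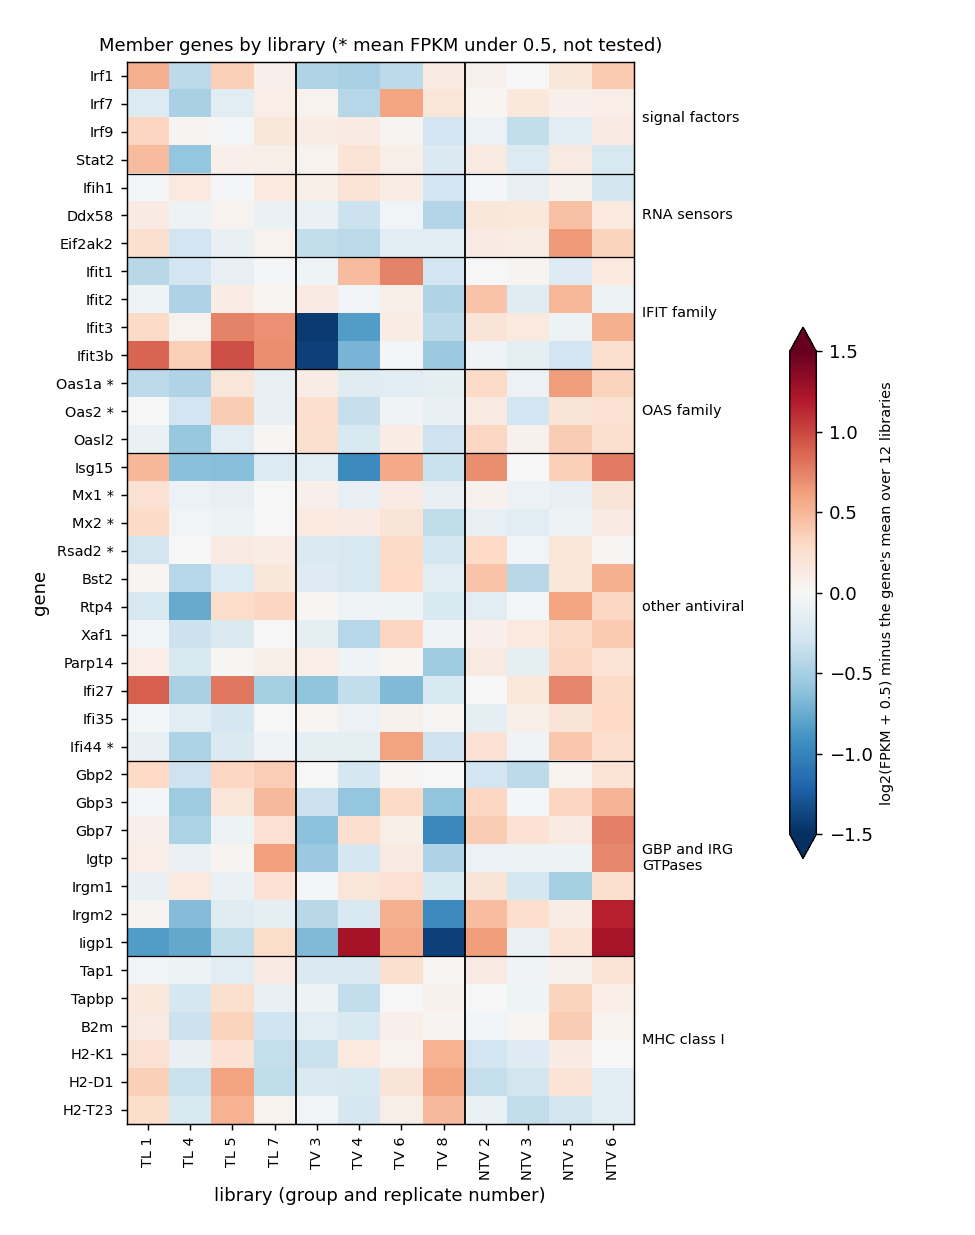
Each row is a gene and each column a library, grouped as TL, TV and NTV; colour is log2(FPKM + 0.5) minus the gene's mean over the 12 libraries, on a scale that ends at ±1.5, and asterisks mark the 6 genes under a mean of 0.5 FPKM. Ifit3 and Ifit3b are lowest in TV replicate 3, while the GTPases Irgm2 and Iigp1 are highest or near highest in NTV replicate 6 and lowest in TV replicate 8.

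The comparison of TV with NTV asks how the muscle of tumour-bearing mice differed from that of tumour-free mice under vehicle. Ddx58, Eif2ak2 and Ifit3 were lower in TV, and none of the tested genes was higher. They encode the RNA helicase RIG-I, the RNA-activated kinase PKR and an antiviral protein of the IFIT family. That is 3 of 32 tested genes (9.38%), against 25.2% of all tested genes called in this comparison in either direction (13.8% higher and 11.5% lower), so the share called was below the background. The differences leaned downward, with 22 of 32 below 0 and 10 above, a median of -0.25 and a range of -0.84 to 0.30. The median over all tested genes was 0.015. The median of the 32 was -0.16 without NTV replicate 5, and also -0.16 without the 3 libraries with Ucp1. Limma gave an unadjusted p under 0.05 for 9 of the 32, against 4985 of the 12754 genes tested, again a smaller share. In whole muscle, fewer cells of a type and less RNA per cell cannot be told apart.

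The 2 sensor genes that fell had groups that did not overlap. Ddx58 (mm10 chr4:40203773-40239828) had 0.733, 0.556, 0.788 and 0.47 FPKM in TV, against 0.987, 0.973, 1.29 and 0.959 FPKM in NTV. Every TV library was below every NTV library, and Ddx58 was lower in TV by a log2 difference of -0.45 ± 0.13 (adjusted p = 0.0252, limma). The call ended without NTV replicate 5, the library with the highest Ddx58 (adjusted p = 0.0696), or without TV replicate 4 (adjusted p = 0.0657). It also ended with only TV and NTV in the fit (adjusted p = 0.05155, limma) and with no filter on low values (adjusted p = 0.0561).

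Eif2ak2 (mm10 chr17:78852564-78882573) had 0.859, 0.821, 1.06 and 1.07 FPKM in TV, against 1.41, 1.39, 2.23 and 1.71 FPKM in NTV. All 4 TV libraries lay below all 4 NTV libraries, with a log2 difference of -0.58 ± 0.15 (adjusted p = 0.0165, limma). This call held when any 1 library was left out (adjusted p up to 0.0473). Without the 3 libraries with Ucp1 it was just past the threshold, at -0.46 (adjusted p = 0.0515), and those of Ddx58 and Ifit3 also ended (adjusted p = 0.0949 and 0.0819). The third sensor, Ifih1, which encodes MDA5, was not called and leaned the other way. It averaged 0.584 ± 0.153 FPKM in TV and 0.496 ± 0.0977 FPKM in NTV (SD, n = 4 each), a difference of 0.12 with a 95% interval of -0.19 to 0.43.

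In the IFIT family, Ifit3 (mm10 chr19:34583531-34588731) had 1.32, 2.24, 4.79 and 3.22 FPKM in TV, against 5.12, 4.92, 4.14 and 6.6 FPKM in NTV. TV replicate 6 reached into the NTV range, so the groups overlapped, and the log2 difference was -0.84 ± 0.28 (adjusted p = 0.0477, limma). The call survived the removal of TL replicate 4 or of TV replicate 6. It ended on removal of any 1 of the other 10 libraries (adjusted p up to 0.12). Without TV replicate 6 the difference was -1.09 (adjusted p = 0.0113). With only TV and NTV in the fit, Ifit3 was not called (adjusted p = 0.0724, limma). Nor was Ifit3 called with no filter, no trend or a robust fit (adjusted p = 0.102, 0.0514 and 0.0505, limma). Its neighbour Ifit3b was lower by -0.61 ± 0.25 but not called (adjusted p = 0.0885). Ifit1 and Ifit2, which bind viral RNA, differed by 0.22 (95% interval -0.24 to 0.67) and -0.23 (-0.67 to 0.21) and were not called. Oasl2, the one OAS gene tested, differed by -0.30 ± 0.18 (adjusted p = 0.236, limma).

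Among the other antiviral effectors, all 7 tested genes (Isg15, Bst2, Rtp4, Xaf1, Parp14, Ifi27 and Ifi35) had lower means in TV on the log2 scale, between -0.76 and -0.10, and none was called. Ifi27 had 11.2, 13.3, 10.8 and 14.8 FPKM in TV, against 17.3, 19.5, 29.2 and 21.3 FPKM in NTV. Those groups did not overlap, yet with TL in the fit the adjusted p was 0.091 (limma, -0.76 ± 0.31). It was 0.0143 with only TV and NTV in the fit, and 0.0152 (-0.61) without the 3 libraries with Ucp1. Counting Ddx58, Eif2ak2 and Ifi27, 3 of 32 genes had all TV libraries below all NTV libraries, against 12.7% of all tested genes, and 0 of 32 had them above, against 14.4%. The tetherin gene Bst2 averaged 5.89 ± 1.2 FPKM in TV and 7.28 ± 2.04 FPKM in NTV (SD, n = 4 each). Isg15 averaged 1.19 ± 0.744 FPKM in TV and 2.07 ± 0.598 FPKM in NTV, on few reads.

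The signal factors and the GTPases were not called in TV against NTV. Irf1, a transcription factor induced by interferon gamma, had 1.41, 1.37, 1.49 and 2.34 FPKM in TV, against 2.23, 2.1, 2.44 and 2.94 FPKM in NTV. Only TV replicate 8 entered the NTV range, and the difference of -0.46 ± 0.20 passed the threshold without that library (-0.60, adjusted p = 0.0426) but not with it (adjusted p = 0.109, limma). Irf7, Irf9 and Stat2 differed by 0.00, 0.12 and 0.07. The GTPases ranged from -0.76 for Irgm2 to 0.12 for Irgm1, with a median of -0.55. Irgm2 had 1.76, 2.08, 3.87 and 1.05 FPKM in TV, against 3.64, 3.09, 2.76 and 6.28 FPKM in NTV. These groups overlapped through TV replicate 6 alone (adjusted p = 0.0819, limma).

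Without TV replicate 6, 7 genes were called lower in TV against NTV in place of 3, Ifit3b, Isg15, Gbp3 and Irgm2 being the additional ones, and 3204 of the 12754 genes tested were called in either direction. Without NTV replicate 5 it was 1, Eif2ak2, beside 2427 of all genes tested.

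MHC class I genes showed no called difference. B2m had 84.8, 81.3, 101 and 98 FPKM in TV, against 92.4, 96.3, 124 and 98.9 FPKM in NTV. The groups overlapped, and the difference of -0.17 had a 95% interval of -0.52 to 0.17. The classical heavy chains H2-K1 and H2-D1 differed by 0.18 (-0.22 to 0.58) and 0.23 (-0.31 to 0.77), and the non-classical H2-T23, which presents leader peptides of other class I chains, by 0.30 (-0.08 to 0.68). These intervals include 0 and also sizable differences, so they do not show that the levels were equal. Tap1, a subunit of the peptide transporter, and Tapbp differed by -0.13 (-0.43 to 0.17) and -0.19 (-0.49 to 0.11).

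Markers of some other cell types moved with the same contrast, in which 25.2% of all tested genes were called and 11.5% called lower. Markers of fibro-adipogenic and tendon cells summed to 99.5 to 155 FPKM in TV libraries and 208 to 294 FPKM in NTV libraries. Of these, 8 of 12 were called lower (66.7%, limma). Endothelial markers summed to 90.5 to 118 FPKM in TV and 111 to 145 FPKM in NTV. Kdr and Cdh5 were called lower among 12 (16.7%), a share near that of all genes. Adipocyte markers summed to 233 to 865 FPKM in TV and 167 to 430 FPKM in NTV, with 0 of 12 called. Of 12 muscle fibre markers, 2 were called higher and 1 lower (25%). Mitochondrial transcripts made up 5.08 to 7.70% of reads in TV and 11.6 to 13.5% in NTV. Macrophage markers summed to 27.7 to 59.4 FPKM in TV and 22.9 to 58.4 FPKM in NTV, and 0 of 9 tested were called. Lymphocyte and natural killer markers summed to at most 0.673 FPKM in any library, with the T-cell gene Cd3d and the B-cell gene Ms4a1 at 0 reads throughout. The part of these shifts in the interferon-responsive genes was not tested.

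**Figure D2:**
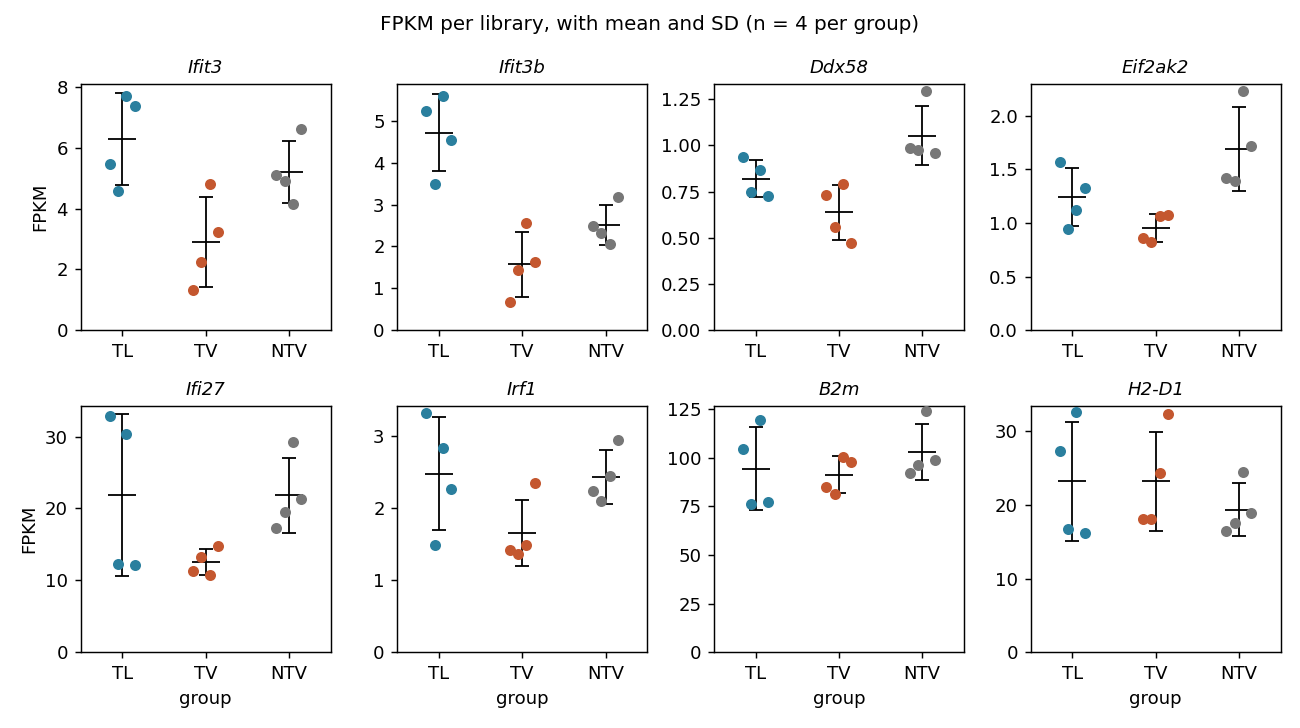
FPKM of 8 genes in each library of TL, TV and NTV, with horizontal bars at the mean and error bars of 1 SD (n = 4 per group); each panel has its own linear axis from 0. Ddx58 and Eif2ak2 are lower in all 4 TV libraries than in all 4 NTV libraries, Ifit3b is higher in all 4 TL libraries than in all TV and NTV libraries, and B2m overlaps between groups.

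The comparison of TL with TV asks what selpercatinib changed in tumour-bearing mice. It uses the same TV libraries as the comparison with NTV, so the 2 are not independent. One gene was called, Ifit3b, which was higher in TL. That is 1 of 32 tested genes (3.12%), against 0.517% of all tested genes in either direction and 0.235% higher. The median over the 32 was 0.029 and that of all tested genes -0.003, with 18 above 0 and 14 below. The median of the 32 was 0.17 without TL replicate 4 and -0.07 without the 3 libraries with Ucp1. Limma gave an unadjusted p under 0.05 for 3 of them, against 2057 of the 12754 genes tested.

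Ifit3b (mm10 chr19:34607970-34613401) had 5.22, 3.5, 5.6 and 4.55 FPKM in TL, against 0.677, 1.43, 2.57 and 1.62 FPKM in TV. Every TL library was above every TV library, with a log2 difference of 1.39 ± 0.25 and an adjusted p of 0.0328 (limma), which is 2.63-fold on the FPKM + 0.5 scale. It was the only one of the 32 without overlap between TL and TV, against 7.42% of all tested genes in either direction and 3.36% higher. The call ended when any 1 of 9 libraries was left out, that is any but TL replicate 4, TV replicate 6 and NTV replicate 6 (adjusted p up to 0.127). It also ended without the 3 libraries with Ucp1 (1.20, adjusted p = 0.53), which leaves 2 TL libraries.

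Ifit3 had 5.46, 4.57, 7.7 and 7.38 FPKM in TL, against the TV values given above. Only TV replicate 6, at 4.79, exceeded a TL library, and the difference of 1.08 ± 0.28 was not called (adjusted p = 0.116, limma). Without TV replicate 6 it was 1.33 (adjusted p = 0.0378), and the count of called genes was then 2.

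Ifit3 and Ifit3b lie next to each other on chromosome 19 and their counts are uncertain. Of the 75-base stretches in the annotated transcripts of Ifit3, 41.1% also occur in Ifit3b, and 35.7% of those of Ifit3b occur in Ifit3, so reads there could be assigned to either gene or dropped. Read length was not given, and 75 bases was chosen here. With the reads of both genes added together as 1 feature, a choice made after the values were seen, the sum was 10.7, 7.998, 13.2 and 11.7 FPKM in TL, against 1.95, 3.62, 7.21 and 4.73 FPKM in TV. The 4 TL libraries remained above the 4 TV libraries, but the difference of 1.32 ± 0.29 was not called (adjusted p = 0.0719, limma). For TV against NTV the summed difference was -0.82 ± 0.29 (adjusted p = 0.0551).

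The balance between the pair can be described by a ratio. The ratio of Ifit3b to Ifit3 FPKM, examined after the values were seen, was 0.957, 0.766, 0.728 and 0.616 in TL, 0.514, 0.636, 0.536 and 0.503 in TV, and 0.487, 0.473, 0.496 and 0.481 in NTV. NTV libraries were nearly equal to each other, and all TV and TL libraries lay above them. The mean was 0.767 ± 0.142 in TL, 0.547 ± 0.0605 in TV and 0.484 ± 0.0099 in NTV (SD, n = 4 each). TL and TV overlapped, through TV replicate 4. Because this ratio was picked for its values, it is given as a description. An exact permutation test was run on the ratio, but that choice voids its p-values, and they are left out.

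**Figure D3:**
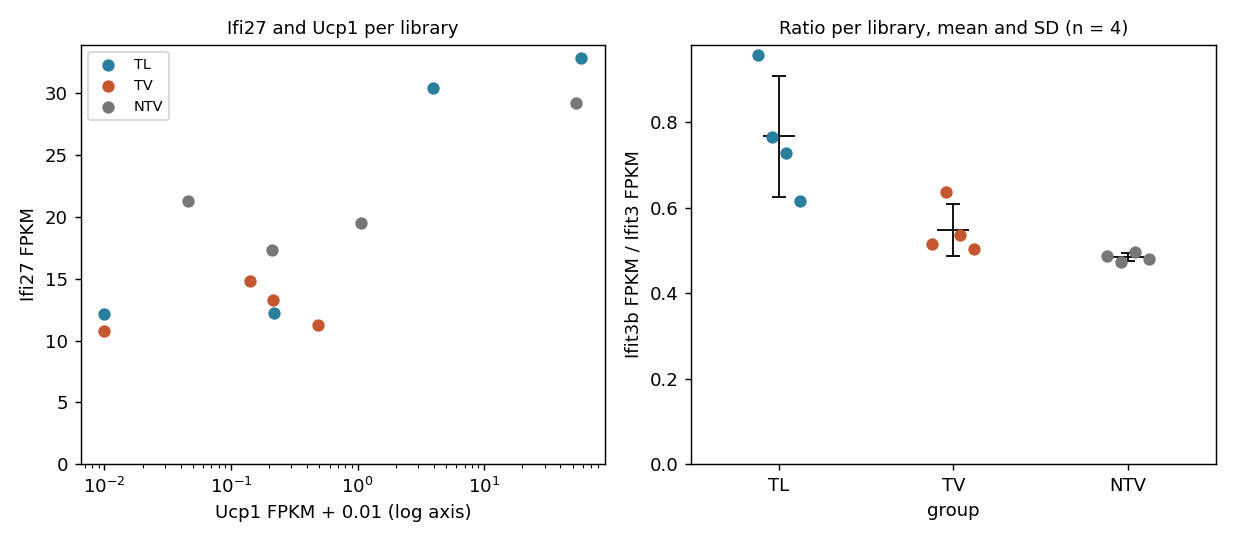
Left, Ifi27 FPKM against Ucp1 FPKM + 0.01 on a log axis, 1 point per library; the 3 libraries above 2 FPKM of Ucp1 hold the 3 highest Ifi27 values, 29.2 to 32.8 FPKM. Right, the ratio of Ifit3b to Ifit3 FPKM per library with the mean and SD (n = 4 per group), highest in TL and narrowest in NTV.

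Ifi27 separated the TL libraries into 2 levels. It had 32.8, 12.2, 30.4 and 12.2 FPKM in TL, against 11.2 to 14.8 FPKM in TV. The 2 high TL libraries, replicates 1 and 5, are those with Ucp1 above 2 FPKM, and NTV replicate 5, the third such library, had the highest Ifi27 of its group at 29.2 FPKM. The fat-cell hormone gene Adipoq was also high in TL replicates 1 and 5, at 51.2 and 66.0 FPKM, but TV replicate 4 had 33.6 FPKM of Adipoq with 13.3 FPKM of Ifi27. Over all 3 groups, the difference of Ifi27 between TL and TV was 0.64 ± 0.31 (adjusted p = 0.336, limma). Without the 3 libraries it was -0.02. The part of fat tissue in these values was not tested.

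The other members overlapped between TL and TV. In the GTPases the differences lay between -0.37 for Iigp1 and 0.45 for Igtp. Iigp1 had 3.24, 3.44, 4.67 and 7.58 FPKM in TL, 3.72, 15.5, 9.5 and 2.03 FPKM in TV, and 9.81, 5.75, 7.2 and 15.3 FPKM in NTV. Its range within TV was wider than the distance between the group means of 4.73, 7.68 and 9.51 FPKM in TL, TV and NTV, and each difference had an SE of 0.51. In the MHC class I genes all 6 differences lay between -0.10 and 0.10, and 4 of the 6 were above 0. B2m had 104, 76.2, 120 and 77.3 FPKM in TL, high in replicates 1 and 5, and H2-D1 had 27.3, 16.8, 32.6 and 16.2 FPKM in TL, high in the same libraries. The difference of B2m was 0.03 with a 95% interval of -0.32 to 0.37.

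**Figure D4:**
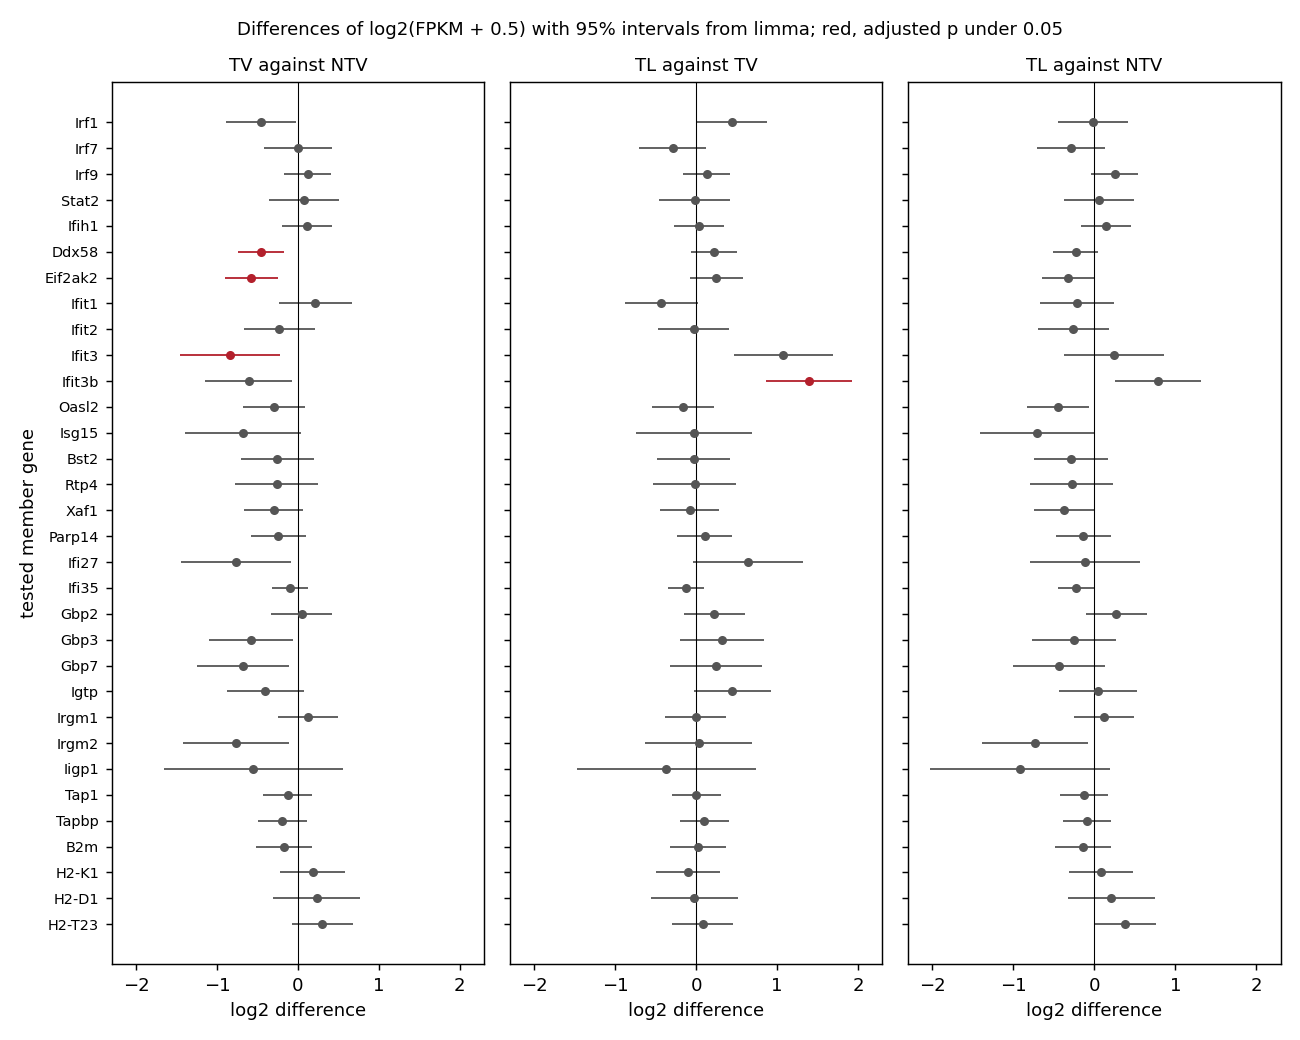
Log2 differences of FPKM + 0.5 for the 32 tested genes in 3 panels, from left to right TV against NTV, then TL against TV, then TL against NTV, as points with 95% intervals from limma; genes run down the page by role, and red marks an adjusted p under 0.05. Red points are Ddx58, Eif2ak2 and Ifit3 on the left and Ifit3b in the middle, and most intervals cross 0.

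Between TL and NTV, which differ in both tumour and drug, 0 of 32 genes were called by limma or by voom on the recovered reads, against 8.81% of all tested genes, and 7 had an unadjusted p under 0.05 in limma, against 3506 of the 12754 genes tested. The median was -0.14, beside 0.022 over all tested genes. It was -0.058 without TL replicate 4, -0.21 without TL replicate 5 and -0.23 without the 3 libraries with Ucp1. Groups did not overlap for 5 of the 32, with Ifit3b higher in TL and Ddx58, Oasl2, Xaf1 and Irgm2 lower, against 20.8% of all tested genes (10.8% higher and 10.1% lower). Ifit3b, at 3.5 FPKM or more in TL and 3.17 FPKM or less in NTV, differed by 0.79 ± 0.25 (adjusted p = 0.0663, limma). It was called without TV replicate 3 or TV replicate 6 (adjusted p = 0.0238 and 0.035), libraries that enter this comparison only through the shared spread.

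Markers of other cell types moved in TL against NTV too, where 8.81% of all tested genes were called in either direction. Those of fibro-adipogenic and tendon cells summed to 75.4 to 142 FPKM in TL and 208 to 294 FPKM in NTV. Of these, 6 of 12 were called lower (50%, limma). Endothelial markers summed to 70.2 to 97.6 FPKM in TL and 111 to 145 FPKM in NTV, with 3 of 12 called lower (25%). The 12 adipocyte markers all had differences above 0 and summed to 162 to 1127 FPKM in TL and 167 to 430 FPKM in NTV, with 0 called. Their part in the differences of the interferon-responsive genes was not tested.

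Of those lower in TL, Ddx58 had 0.937, 0.749, 0.867 and 0.727 FPKM in TL, just below the lowest NTV library at 0.959 (-0.23 ± 0.13, adjusted p = 0.269). Eif2ak2 had 1.57, 0.943, 1.12 and 1.32 FPKM in TL, and overlapped both other groups. Ddx58 and Eif2ak2 thus had TL means of 0.82 and 1.24 FPKM, between those of TV (0.637 and 0.954) and NTV (1.05 and 1.69), and neither differed from TV by a called amount (0.22 and 0.25, adjusted p = 0.426 and 0.438, limma). Oasl2, a relative of the 2-5A synthetases that promotes RNA sensing in its human form, had 0.433, 0.171, 0.389 and 0.514 FPKM in TL, 0.682, 0.351, 0.581 and 0.305 FPKM in TV, and 0.739, 0.543, 0.8 and 0.682 FPKM in NTV. Its difference in TL against NTV was -0.45 ± 0.18 (adjusted p = 0.121).

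Xaf1, which antagonises inhibitors of apoptosis, had 0.508, 0.33, 0.394 and 0.533 FPKM in TL, 0.446, 0.274, 0.803 and 0.507 FPKM in TV, and 0.596, 0.648, 0.771 and 0.865 FPKM in NTV. Irgm2 had 2.6, 1.42, 2.16 and 2.23 FPKM in TL, below all NTV libraries by -0.73 ± 0.30 (adjusted p = 0.14, limma). Ifi44 was below the minimum and not tested, with 0.247, 0.0843, 0.197 and 0.281 FPKM in TL, 0.234, 0.237, 0.731 and 0.153 FPKM in TV, and 0.438, 0.282, 0.574 and 0.46 FPKM in NTV. It too had no overlap between TL and NTV, by a margin of 0.281 to 0.282 FPKM. Irf1 had 3.31, 1.49, 2.83 and 2.25 FPKM in TL and overlapped both other groups. In MHC class I, H2-T23 averaged 5.01 ± 1.2 FPKM in TL and 3.67 ± 0.332 FPKM in NTV (SD, n = 4 each), a difference of 0.38 that was not called (adjusted p = 0.18, limma).

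Without the 3 libraries with Ucp1, Ifi27 was called lower in TL against NTV (-0.64, adjusted p = 0.0475), where the full set gave -0.12 (adjusted p = 0.842). The 2 TL libraries that remain both had 12.2 FPKM.

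The libraries of a group did not move as a block. Over the 32 tested genes, the median deviation from each gene's mean was 0.10, -0.31, 0.03 and 0.08 in TL, -0.15, -0.23, 0.09 and -0.23 in TV, and 0.07, -0.04, 0.18 and 0.24 in NTV, on the log2 scale. TL replicate 4 was the lowest of all 12, and TV replicate 6 stood above the rest of TV. NTV replicate 6 was the highest library for 9 of the 32 genes and NTV replicate 5 for 8, while TL replicate 4 and TV replicate 8 were each the lowest for 7. The roles differed in which libraries stood out: NTV replicate 6 led by the GTPases, with a median deviation of 0.72, and NTV replicate 5 by the RNA sensors, with 0.44. TV replicate 8 was low in the GTPases (-0.59) but high in MHC class I (0.27).

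Genes of the wider pathway were called in both directions in TV against NTV. Of 19 tested genes for interferon receptors and signalling, 3 rose and 1 fell (21.1%, near the background of 25.2%). Stat3, the transcription factor of IL-6 family receptors, averaged 22.5 ± 4.23 FPKM in TV and 8.13 ± 0.632 FPKM in NTV (1.40 ± 0.17), and Irf3, the factor activated by RNA sensing, rose by 0.35 ± 0.07. Irf8, a myeloid factor, rose by 0.56 ± 0.17. Irf5, which acts downstream of Toll-like receptors, averaged 0.57 ± 0.268 FPKM in TV and 3.33 ± 1.44 FPKM in NTV (-1.80 ± 0.29).

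Of 40 other tested interferon-stimulated genes, 5 rose and 4 fell (22.5%, also near the background). Ifitm1, which restricts virus entry, rose by 1.57 ± 0.27, at 3.69 ± 1.61 FPKM in TV and 0.86 ± 0.248 FPKM in NTV. Ifi30, a lysosomal thiol reductase of antigen processing, rose by 1.36 ± 0.30, and the histone chaperone gene Daxx and Trafd1 rose by 0.52 ± 0.08 and 0.38 ± 0.08. Parp10 fell by 1.02 ± 0.22 and Ifi203 fell by 0.87 ± 0.14 on the log2 scale. In nucleic acid sensing 1 of 14 was called (7.14%), the adaptor Traf3, which was lower (-0.52 ± 0.16).

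Of 17 tested genes of peptide loading and the immunoproteasome, which cut and load peptides for MHC class I, 5 fell and 1 rose (35.3% called, against 25.2% of all tested genes). Psme1, a subunit of the proteasome activator PA28, averaged 11.5 ± 2.92 FPKM in TV and 20.0 ± 1.87 FPKM in NTV (-0.79 ± 0.17), and the immunoproteasome subunits Psmb9 and Psmb10 were both lower by -0.56 ± 0.14. Pdia3, a chaperone of the loading complex, and Rfxank, a subunit of the RFX factor, were lower by -0.39 ± 0.10 and -0.43 ± 0.13, and Rfx5, another RFX subunit, rose by 0.38 ± 0.12. Psmb9 overlaps Tap1 on the opposite strand, and since strand is not stated for the counting, their shared reads cannot be told apart. Among 9 other tested class I genes, only Mr1, which presents vitamin B metabolites, was called (11.1%), higher by 0.45 ± 0.10. In MHC class II, H2-Eb1 (-0.83 ± 0.27) and H2-DMa (-0.59 ± 0.15) were lower among 5 tested (40%, against 25.2% of all tested genes).

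In TL against TV the wider lists held a single called gene, Daxx, with 4.86 ± 0.161 FPKM in TL and 6.75 ± 0.641 FPKM in TV (-0.43 ± 0.08, adjusted p = 0.0364, limma). That is 1 of 40 tested genes of its list (2.5%), against 0.517% of all tested genes, and 0 in the other tested lists. Stat3 came near at -0.78 ± 0.17 (adjusted p = 0.0719). Psmb9 and H2-DMa differed by 0.47 ± 0.14 and 0.46 ± 0.15 without being called (adjusted p = 0.153 and 0.18). In TL against NTV, Stat3 (0.61 ± 0.17), Irf3 (0.41 ± 0.07), Ifitm1 (1.65 ± 0.27), Znfx1 (0.45 ± 0.11) and Mr1 (0.54 ± 0.10) were called higher, and Irf5 (-1.51 ± 0.29), Ifi203 (-0.61 ± 0.14), Parp10 (-0.78 ± 0.22) and Pdia3 (-0.51 ± 0.10) lower. By list, 3 of 19 genes of receptors and signalling (15.8%) and 4 of 40 other interferon-stimulated genes (10%) were called in TL against NTV. So were 1 of 17 of peptide loading (5.88%) and 1 of 9 other class I genes (11.1%). In nucleic acid sensing it was 0 of 14 and in MHC class II 0 of 5. Over all tested genes 8.81% were called, so most of these shares were near the background. TL against TV and TL against NTV share the TL libraries.

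Assignment of reads is a limit for several other members. Oas1a shares 47.6% of its 75-base stretches with Oas1g, Gbp7 shares 11.3%, Rtp4 10.5% and Igtp 7.8% with other genes, while 18 of the 38 share none. Among protein-coding genes, Igtp and Irgm2 overlap on the same strand. So do Tapbp and Zbtb22, which lies within it and averaged 7.67 FPKM, and Irf9 and Rnf31, at 3.42 FPKM. H2-D1, H2-T23 and H2-K1 share 5.4%, 5.91% and 3.1%, in the reference strain; ICR is an outbred stock, and its class I alleles may differ from the reference, which was not tested. In all, 16 members overlap another annotated gene.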

How the data were processed

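RNA was sequenced from the gastrocnemius of 12 mice, 4 per group, after poly(A) selection and random hexamer priming, per the labels' protocols. The authors deposited 1 table of FPKM with gene positions (mm10) and the gene length in bases, which was used to recover reads. The authors' tools, which the submitters' processing notes name with no role, are HISAT2 2.05, featureCounts 1.5.0-p3 and DESeq2, with the build mm10; strand and read length are not given in the sources used here. FPKM times length gave whole reads for 100% of genes, within 0.1 read, and the scale between libraries equalled median-of-ratios factors (relative difference up to 8.43e-11), which assume that most genes do not differ.

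Differences were tested with limma 3.58.1 (R 4.3.3) on log2(FPKM + 0.5), fitting a mean for each group to all 12 libraries with a trend of the variance on the mean, and p-values were adjusted over 12754 genes (Benjamini-Hochberg); it was first tested on simulated data. Members and gene lists were chosen with earlier results of these data known, so members are described by counts and medians, with no test over a list. All members are accounted for by role, with values in every library for those called, the highest of each role and those whose groups do not overlap. Of each wider list the called genes are named, up to 6 by p, or else the 2 with the smallest p. Of 293 symbols, 289 were found. Replicates were distinct (chi-square over its degrees of freedom 19.3 or more). Alternatives were other pseudocounts, filters, scalings and fits, voom, the replicate number as a block, each library left out, and leaving out libraries with Ucp1 above 2 FPKM; summing Ifit3 and Ifit3b was added after the values were seen. A count of 0 was read as at most 3 reads, a limit for counting error alone. Motifs and shared 75-base stretches were counted with Python 3.11.15 in RefSeq promoter windows (GRCm38.p6) and GENCODE M21 transcripts; figures were drawn with matplotlib 3.10.9.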

Additional observations from a re-analysis of the deposited data

Results flagged for a closer look

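Of 96 sets of 4 libraries, that is each tested gene in each group, 6 held a library far from the other 3, where chance gives about 1 in 20. Irf1 was 2.34 FPKM in TV replicate 8, with the next TV library at 1.49. Bst2 was 7.68 FPKM in TV replicate 6, with the next at 5.43. Gbp2, a guanylate-binding GTPase, was low in replicate 4 of both tumour groups, at 1.76 FPKM in TL (next 2.95) and 1.82 FPKM in TV (next 2.29). In NTV, Ddx58 was 1.29 FPKM in replicate 5, with the next at 0.987, and Igtp was 6.51 FPKM in replicate 6, with the next at 3.55. In TV against NTV, Ddx58 was not called without NTV replicate 5, nor without TV replicate 4, and Irf1 was called without TV replicate 8; each refit left out the library for all genes.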

How the results depend on the processing

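Among single genes, 2421 of the alternatives kept the side of the threshold, 39 lost a call, 21 gained one and none reversed a called difference. Differences that were not called could change sign within the 2421. Ifi27 in TL against NTV, for example, was -0.12 with all libraries and 0.11 without TL replicate 7. For TV against NTV, the 3 members called became 1 with no filter, 5 with equal library totals, 6 with library weights and 1 without the libraries with Ucp1, all lower in TV. That count was 2 with no variance trend, 2 under robust fitting and 2 when TL was left out of the model, again all lower. With TL left out, the 2 were Eif2ak2 and Ifi27. A minimum mean of 1 FPKM, which Ddx58 did not reach, also gave 2. For TL against TV, the 1 called became 0 with no filter, 2 with library weights, 0 with only the 2 groups in the fit and 0 without the libraries with Ucp1. For TL against NTV, the 0 called became 1 with equal library totals, 1 with library weights and 1 with only the 2 groups, each time Ifit3b higher, and 1 without the libraries with Ucp1, Ifi27 lower. With 1 library left out at a time, the counts ranged from 1 to 7 for TV against NTV, from 0 to 2 for TL against TV and from 0 to 1 for TL against NTV. The counts over all genes ranged from 2223 to 3443, from 7 to 282 and from 514 to 1289 in the same refits (3217, 66 and 1123 with all libraries). The other settings gave 0 to 3985, 0 to 232 and 0 to 1551, the 0 of each coming from the block and, for TL against TV, also without the libraries with Ucp1.

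Replicate numbers are shared by only 1 or 2 libraries of any pair of groups, and same-numbered libraries hardly deviated together (correlations of 0.0142 to 0.133), so the numbers do not pair the mice. With the replicate number as a block, 0 members were called in TV against NTV and 0 in TL against TV, and the median of TV against NTV was -0.076 in place of -0.25; few degrees of freedom remain, and 0 genes of 12754 were called. The median of TL against TV, 0.029, lay between -0.07 and 0.17 over all settings, so its direction depends on the setting. Equal library totals moved the median of all genes in TL against TV to 0.11, and that of the members to 0.12. Genes with few reads, such as Isg15, Mx1 and Oas1a, limit what this depth can show.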
